A study of Mus musculus with 10 samples.

Results

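Immediate early genes, 10 in number, were followed in mouse liver: the transcription factor genes Fos, Jun, Junb, Atf3 and Egr1, the nuclear regulator gene Ier2, the feedback genes Dusp1, Zfp36 and Btg2, and the kinase gene Sgk1. The list was chosen on the deposited expression values themselves, with Dusp1 at its head because its level separated the 2 hairpin lines of the study, and it covers 10 of the 22180 genes measured by a transcript cluster of a single symbol. Each gene had 1 such cluster, and all 10 passed the filter on low levels that left 13308 genes for testing. Differences of the members between the hairpin lines are therefore a description. A fit over all genes also covers that contrast, and its calls are given for the background only. The arrays held RNA from livers of male mice at 4 weeks of age, 1 array per liver. All animals had the genotype Rosa26-rtTA, in which rtTA, a transcription factor that needs doxycycline to act, is placed at the Rosa26 locus. The 4 controls carried rtTA alone. A further 3 livers carried rtTA + SOD2 shRNA 1 and 3 carried rtTA + SOD2 shRNA 2, each a short hairpin RNA that targets Sod2, which encodes the superoxide dismutase of mitochondria. Doxycycline chow at 625 mg/kg was given to the dams to lower SOD2 from embryonic day 0 to 12.5, so the livers were taken weeks after that window, and the 6 hairpin livers are called adapted, as in the labels. Which promoter drives the hairpins, and from how many clones or founders each line came, is not stated in the labels. Of the controls, 3 were littermates of the shRNA 2 cohort and 1 of the shRNA 1 cohort, without a statement of which, so hairpin, line and cohort cannot be told apart. The labels do not say outright that each numbered liver is a separate animal, so the p-values below reflect the variation among these arrays, which may be technical in part.

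Immediate early genes are switched on within minutes of a stimulus, without new protein synthesis, by transcription factors that are already in the nucleus and are phosphorylated by MAP kinases and by the cyclic AMP pathway. Their products are of opposing kinds. FOS, JUN, JUNB, ATF3 and EGR1 carry the signal on to later genes, whereas DUSP1, a phosphatase, inactivates JNK and p38 MAP kinases, ZFP36 (tristetraprolin) speeds the decay of AU-rich messenger RNAs, and BTG2 is an antiproliferative cofactor of messenger RNA deadenylation. In liver, feeding state, glucocorticoids, cytokines, surgery and handling of the tissue are known to alter the levels of these genes, and Dusp1 and Sgk1 are classical glucocorticoid-induced genes as well.

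The arrays were alike in scale. The array medians ranged from 4.06 to 4.17 in log2 expression, and across genes, which are not independent replicates, the correlation of 2 arrays was 0.989 to 0.994. All 12 hepatocyte marker genes passed the level filter, whereas 9 of the 11 neutrophil markers measured did not. For Sod2 itself the control mean was log2 10.38 ± 0.08 (SD, n = 4), the shRNA 1 mean 10.39 ± 0.06 (SD, n = 3) and the shRNA 2 mean 10.35 ± 0.12 (SD, n = 3). Adapted minus control was -0.01 for this gene (adjusted p = 0.980 in limma), within that spread, and these arrays cannot show how far the earlier knockdown went.

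Among the immediate early genes, Dusp1 had the largest difference between the hairpin lines. Its log2 expression was 8.10, 7.96, 8.04 and 8.37 in the 4 controls, 8.67, 8.37 and 8.43 in shRNA 1 livers and 7.57, 7.54 and 7.40 in shRNA 2 livers. Every shRNA 2 liver lay below every control and below every shRNA 1 liver, and 2 of 3 shRNA 1 livers lay above every control, the third being level with control replicate 4. The group means were 8.49 ± 0.16 (SD, n = 3) for shRNA 1, 8.12 ± 0.18 (SD, n = 4) for controls and 7.50 ± 0.09 (SD, n = 3) for shRNA 2, so that the controls came between the lines. The difference of shRNA 1 minus shRNA 2 was 0.99 (standard error 0.13) on the log2 scale, a ratio of 1.98. Against control it was 0.37 (standard error 0.12) in shRNA 1 livers and -0.62 (standard error 0.12) in shRNA 2 livers, 2 differences that share the same 4 controls. In whole liver RNA, fewer cells that hold a transcript and less of it per cell cannot be told apart. In the comparison of lines 2 of 13308 genes passed an adjusted p of 0.05 in limma (0.0150% of genes), Dusp1 and Ctse, which encodes cathepsin E. Since Dusp1 heads the list for this very difference, that call is no independent evidence and nothing is read from it. It was among the genes called in 8 of 19 alternative settings and lost when any 1 of 9 of the 10 arrays was left out, the exception being control replicate 4.

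**Figure D1:**
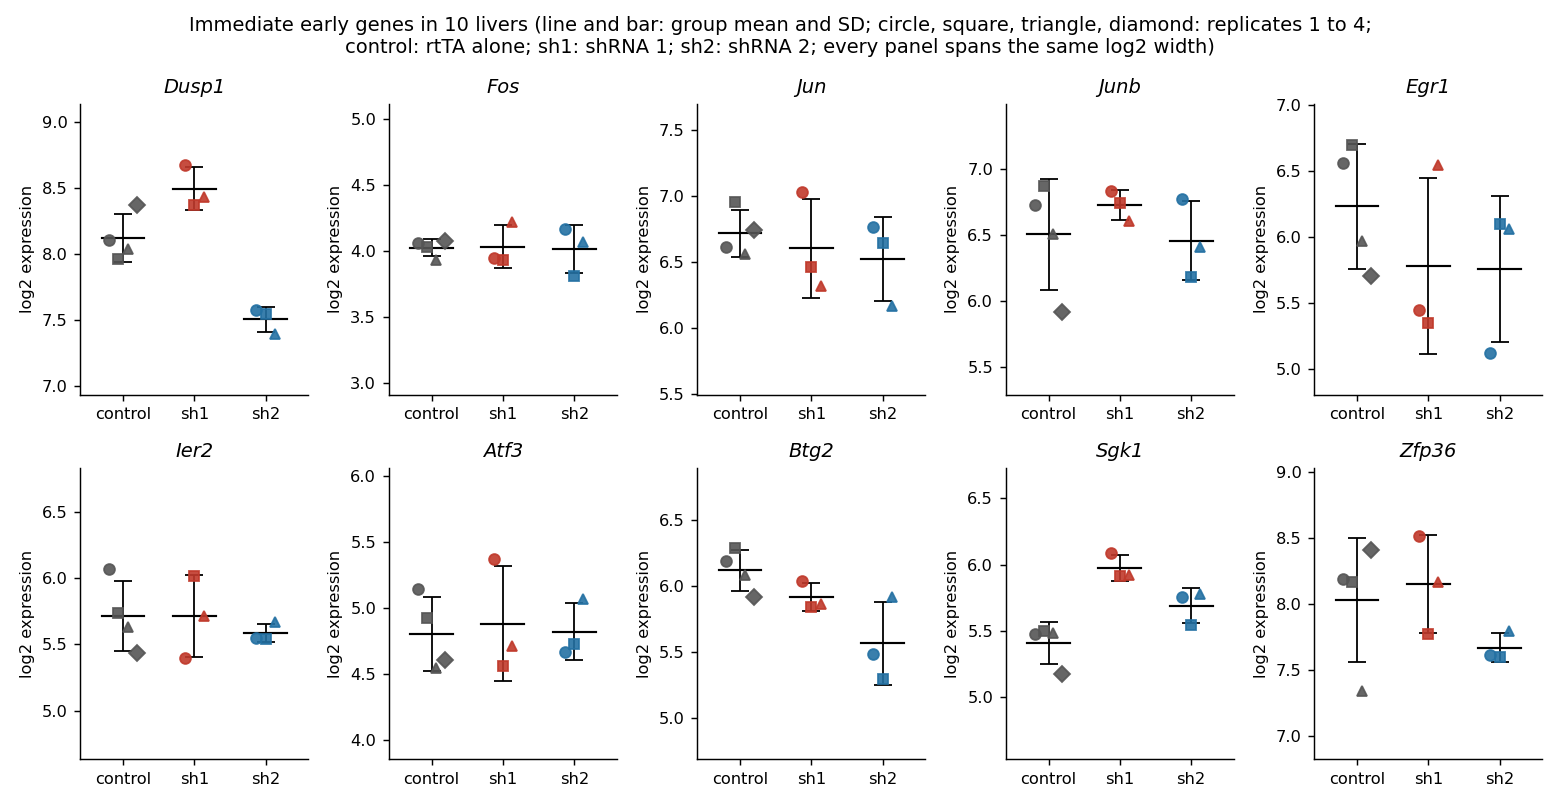
Log2 expression of the 10 immediate early genes in each liver, 1 panel per gene and 1 point per liver, with the group mean and SD and with all panels drawn over the same log2 width. In Dusp1 the shRNA 2 livers (7.40 to 7.57) lie below all controls and all shRNA 1 livers, and in Sgk1 the adapted livers (5.54 to 6.09) lie above all controls (5.17 to 5.50), while the other panels overlap between groups.

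The upstream sequence of 8 of the 10 genes, all but Egr1 and Ier2, was taken from the RefSeq promoter table of build GRCm38.p6. The 250 bases before the annotated start were searched. Dusp1 is printed because it separated the lines, Zfp36 and Btg2 because they are the other feedback genes, and Fos as an activator that did not separate them. Capitals mark the cyclic AMP response element TGACGTCA or 7 bases of it (TGACGTC or GACGTCA), the binding site of EGR factors GCGTGGGCG or GCGGGGGCG, the CArG box bound by serum response factor, and the AP-1 site TGAGTCA, each on either strand.

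Dusp1, chr17:26508473-26508722, minus strand: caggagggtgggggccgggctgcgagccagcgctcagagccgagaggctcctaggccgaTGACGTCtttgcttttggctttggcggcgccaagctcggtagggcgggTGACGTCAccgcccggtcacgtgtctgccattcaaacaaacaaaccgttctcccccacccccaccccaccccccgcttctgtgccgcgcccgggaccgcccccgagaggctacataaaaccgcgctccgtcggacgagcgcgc
Zfp36, chr7:28379229-28379478, minus strand: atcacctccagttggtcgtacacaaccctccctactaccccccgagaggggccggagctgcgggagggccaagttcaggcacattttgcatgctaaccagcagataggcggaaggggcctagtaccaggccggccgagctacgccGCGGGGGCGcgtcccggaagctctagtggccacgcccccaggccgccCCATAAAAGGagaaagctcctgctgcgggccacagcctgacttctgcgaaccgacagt
Btg2, chr1:134079156-134079405, minus strand: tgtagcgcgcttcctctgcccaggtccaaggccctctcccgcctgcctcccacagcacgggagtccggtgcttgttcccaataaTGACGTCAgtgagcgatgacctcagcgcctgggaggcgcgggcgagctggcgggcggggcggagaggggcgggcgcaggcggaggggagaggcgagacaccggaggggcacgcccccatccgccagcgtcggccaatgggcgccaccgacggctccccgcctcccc
Fos, chr12:85473640-85473889, plus strand: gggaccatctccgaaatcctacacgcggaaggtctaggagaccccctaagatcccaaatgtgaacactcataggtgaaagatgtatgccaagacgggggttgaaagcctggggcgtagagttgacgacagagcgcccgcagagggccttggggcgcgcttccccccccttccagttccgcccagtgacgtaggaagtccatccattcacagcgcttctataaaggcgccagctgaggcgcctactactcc

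The complete cyclic AMP response element was present in Dusp1, at positions -143 to -136 counted from the start, and in Btg2, at -166 to -159. Dusp1 held a separate 7-base form as well, at -191 to -185. In all, 1.55% of 32851 promoter windows of this length held the complete element and 2.78% at least the 7-base form, which overlaps it. Zfp36 held a CArG box at -58 to -49 (1.47% of windows) and an EGR site at -105 to -97 (3.06% of windows). An AP-1 site, found in 4.46% of windows, was in none of the windows of the 8 genes, and the Fos window held none of the 4 motifs. The windows of Jun, Junb and Atf3 held none of them either. Nor did any of the 6 windows of Sgk1, a gene whose values, like those of Dusp1, did not overlap between the lines. These are matches of exact letters within 250 bases, and no binding was measured. Variant forms, such as the TGACGTA in the Fos window, and sites farther upstream were not counted. No lack of such sites is therefore read from a window without a match.

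Zfp36 had the second largest difference of means between the lines, but its values overlapped. It was at log2 8.19, 8.17, 7.34 and 8.40 in controls, 8.51, 7.77 and 8.17 in shRNA 1 livers and 7.62, 7.60 and 7.79 in shRNA 2 livers. The highest shRNA 2 liver lay just above the lowest shRNA 1 liver, and control replicate 3 lay below all hairpin livers. The means were 8.15 ± 0.37 (SD, n = 3), 7.67 ± 0.11 (SD, n = 3) and, in controls, 8.03 ± 0.47 (SD, n = 4), with shRNA 1 minus shRNA 2 at 0.48 (standard error 0.25), and at 0.30 without shRNA 1 replicate 1. Btg2 was at 6.19, 6.28, 6.09 and 5.91 in controls, 6.04, 5.84 and 5.86 in shRNA 1 livers and 5.48, 5.30 and 5.92 in shRNA 2 livers. Both lines had lower Btg2 means than the controls, with shRNA 2 replicate 3 standing among the shRNA 1 livers. Its difference from the same controls was -0.20 (standard error 0.14) in shRNA 1 and -0.55 (standard error 0.14) in shRNA 2 livers, and 0.35 (standard error 0.15) between the lines, or 0.52 without shRNA 2 replicate 3 and 0.22 without shRNA 2 replicate 2.

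Sgk1, which encodes a serum- and glucocorticoid-regulated kinase of ion transport and cell survival, differed from Dusp1 in the place of the controls. It was at log2 5.48, 5.50, 5.48 and 5.17 in controls, 6.09, 5.91 and 5.92 in shRNA 1 livers and 5.76, 5.54 and 5.77 in shRNA 2 livers. The 3 groups did not overlap: the controls were lowest, shRNA 2 livers followed and shRNA 1 livers were highest. Against control the difference was 0.57 (standard error 0.11) in shRNA 1 and 0.28 (standard error 0.11) in shRNA 2 livers, and between the lines it was 0.28 (standard error 0.12).

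The activators overlapped between the lines. Fos was close to the level filter of log2 3.98 in all livers, between 3.81 and 4.22, and its mean was 4.03 ± 0.06 (SD, n = 4) for controls, 4.03 ± 0.16 (SD, n = 3) for the first line and 4.02 ± 0.18 (SD, n = 3) for the second. Jun, the main partner of FOS in AP-1, was at 6.56 to 6.96 in controls, 6.32 to 7.03 in shRNA 1 and 6.16 to 6.77 in shRNA 2 livers. Junb, an AP-1 subunit with weaker activating capacity than JUN, was at 5.92 to 6.87, 6.60 to 6.83 and 6.18 to 6.77 in the same order. In each of these genes the 3 groups overlapped. Atf3, a stress-induced factor that often represses, had ranges of 4.55 to 5.15 in controls, 4.56 to 5.37 in shRNA 1 and 4.67 to 5.07 in shRNA 2 livers. Ier2 had 5.43 to 6.07, 5.40 to 6.02 and 5.54 to 5.67. In these 5 genes shRNA 1 minus shRNA 2 was 0.02 (standard error 0.12) for Fos, 0.08 (0.20) for Jun, 0.27 (0.22) for Junb, 0.06 (0.22) for Atf3 and 0.13 (0.17) for Ier2.

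Egr1, a zinc finger factor induced through serum response elements, varied most between livers of the same group. It was at log2 6.56, 6.70, 5.97 and 5.70 in controls, 5.45, 5.35 and 6.55 in shRNA 1 livers and 5.12, 6.10 and 6.06 in shRNA 2 livers. Each line held 1 liver far from the other 2, a high one in shRNA 1 and a low one in shRNA 2. The line means of 5.78 and 5.76 were nearly the same (difference 0.02, standard error 0.36), and both were below the control mean of 6.23 ± 0.47 (SD, n = 4) by less than the spread within groups.

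**Figure D2:**
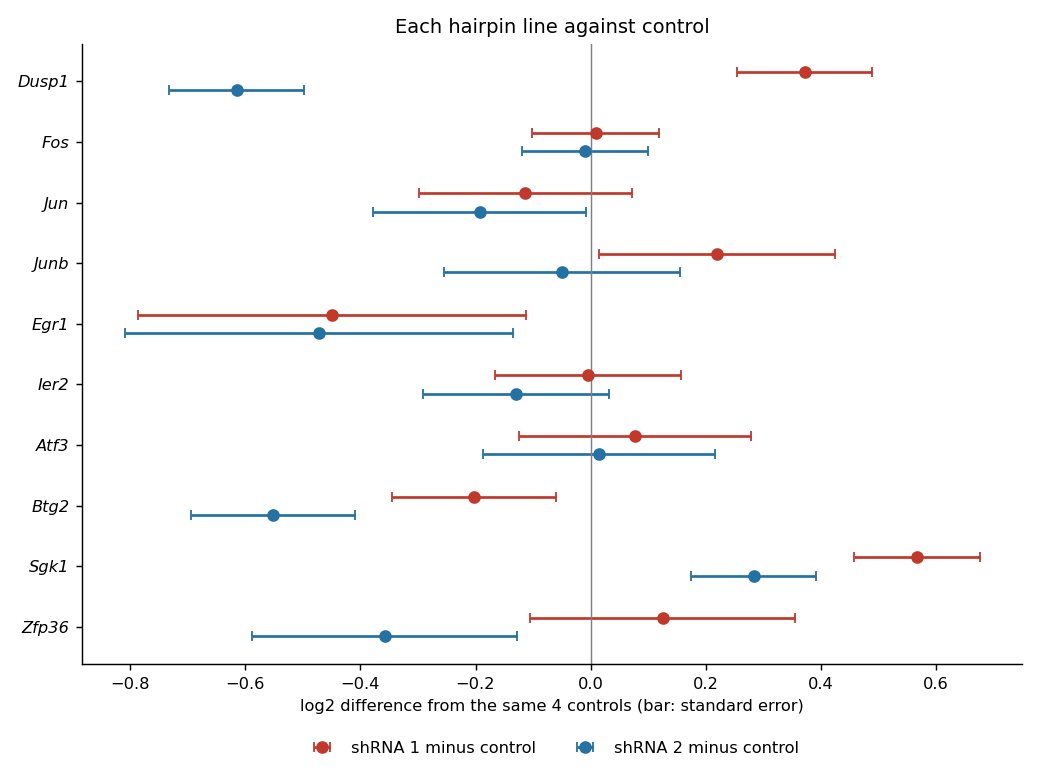
Log2 difference of each hairpin line from the same 4 controls for the 10 genes, with standard errors. Dusp1 is the gene with its lines on opposite sides of 0 (0.37 and -0.62) and bars that stay clear of it; in Sgk1 both lines are above 0 (0.57 and 0.28) and in Btg2 both are below (-0.20 and -0.55).

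Counted over the list, all 10 members had a higher mean in shRNA 1 than in shRNA 2 livers, with a median difference of 0.20 beside 0.00 over all genes tested. In 5 of them (Fos, Jun, Egr1, Ier2 and Atf3) the sign turned when single arrays were left out. Groups that did not overlap, with shRNA 1 higher, were found for Dusp1 and Sgk1, 2 of 10 members, beside 5.94% of all genes, and with shRNA 1 lower for 0 of 10 beside 5.36%. Against control, shRNA 1 livers lay wholly above in 1 member, Sgk1 (5.07% of genes), and wholly below in none (3.82%). Livers of shRNA 2 lay wholly above in Sgk1 (3.88% of genes) and wholly below in Dusp1 (3.41%). By adjusted p in limma, 0.00% of genes passed in shRNA 1 against control and 0.00751%, the single gene Ctse, in shRNA 2 against control, with none of the members among them. Since the list was drawn up with these values in view, the counts describe it and carry no weight beyond that.

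The mean of both lines against control is a contrast that does not use the difference between the lines, and it was tested. The members were chosen with earlier results of these same arrays known, so the p-values may not be free of that choice. None of the 10 members passed an adjusted p of 0.05 in limma, where 1 of 13308 genes did (0.00751%) and 1114 had an unadjusted p under 0.05. Sgk1 came nearest, with adapted livers higher by 0.43 (standard error 0.09, adjusted p = 0.264) and above every control in 6 of 6 livers; its exact two-sided permutation p was 0.0143, where the smallest that 210 arrangements of 6 against 4 livers allow is 0.0048. Adapted livers lay wholly above the controls in 1.04% of genes and wholly below in 0.842%, and among the members this was so for Sgk1 alone. Control replicate 4, at 5.17, was the lowest control for Sgk1, and without it the difference was 0.35. Btg2 followed with a difference of -0.38 (standard error 0.12, adjusted p = 0.433 in limma, exact permutation p = 0.0429) and 4 of 6 adapted livers below every control. The permutation p-values are not adjusted over the 10 members. They also treat the 6 adapted livers as alike, although these come from both lines. Egr1 was at -0.46 with a standard error of 0.28 (adjusted p = 0.708). For Dusp1 the opposite positions of the lines left -0.12 (standard error 0.10, adjusted p = 0.793). The other 6 members had differences between -0.15 and 0.09 and adjusted p-values of 0.842 to 0.998. Over the list 3 of 10 differences were positive and the median was -0.09, beside 0.01 over all genes.

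The members differed widely in their spread between livers of the same group, which is given as a description. For Dusp1 a low spread goes with the separation of the lines on which it was chosen. The median SD within groups was 0.27 for the members beside 0.16 for all genes tested, and 5 of 10 members exceeded the 90th percentile of all genes. These were Egr1 (SD 0.56, percentile 99.3), Zfp36 (0.37, percentile 96.9), Junb (0.32, percentile 94.5), Atf3 (0.32, percentile 94.1) and Jun (0.29, percentile 91.1). Ier2 and Btg2 came next, at 0.24 and 0.21. Dusp1, Fos and Sgk1 varied less than the median gene, at percentiles 46.1, 35.8 and 34.7.

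**Figure D3:**
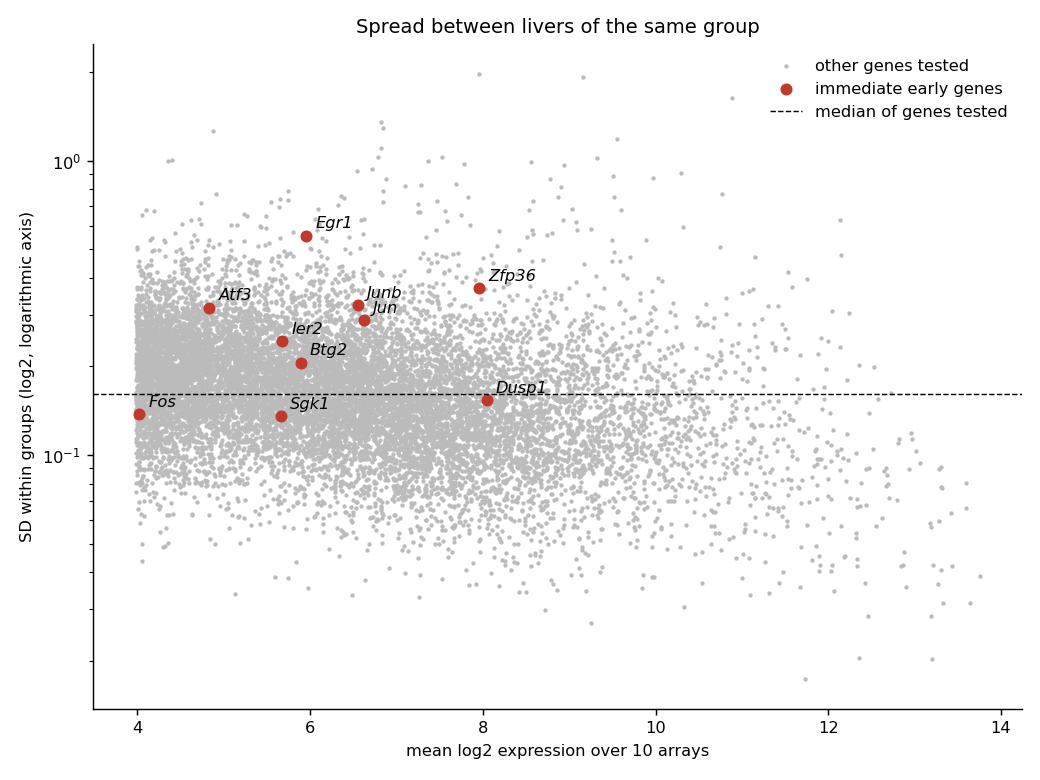
SD within groups (log2, logarithmic axis) against mean log2 expression for the 13308 genes tested, with the 10 immediate early genes named. Egr1 (0.56) and Zfp36 (0.37) lie well above the dashed median of 0.16, while Dusp1 (0.15), Fos (0.14) and Sgk1 (0.14) lie just under it.

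Livers that were high in one immediate early gene were not high in all. In control replicates 1 and 2, 8 and 9 of the 10 members lay above the control mean, and in control replicate 3 only 1 did. Control replicate 4 was mixed: Junb and Egr1 deviated from the control mean by -0.59 and -0.53, and Zfp36 and Dusp1 by 0.38 and 0.25. In shRNA 1 replicate 1, Atf3, Jun and Zfp36 were above the line mean by 0.49, 0.42 and 0.36 while Egr1 deviated by -0.33. In shRNA 1 replicate 3 the deviation of Egr1 was 0.76, and in shRNA 2 replicate 1 it was -0.64. Atf3 and Btg2 lay on the same side of their group means in 10 of 10 livers, and Dusp1 and Jun in 9 of 10, whereas Dusp1 and Ier2 did so in 1 of 10. Over the 45 pairs of members, 17.8% agreed in side in 8 or more livers, beside 8.63% of all pairs of genes tested, and the median was 6 livers beside 5.

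**Figure D4:**
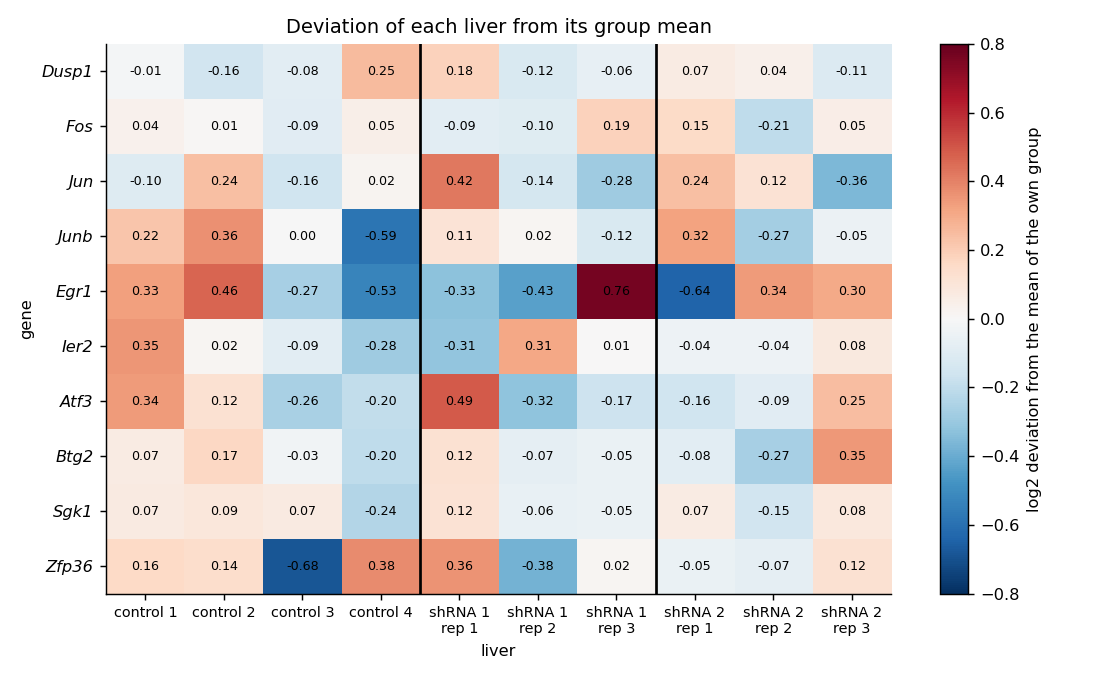
Log2 deviation of each liver (column) from the mean of its own group for each gene (row), red above and blue below. Control replicates 1 and 2 are above the mean in 8 and 9 of 10 genes, control replicate 4 is low in Junb (-0.59) and Egr1 (-0.53) but high in Zfp36 (0.38), and the Dusp1 row is pale, with deviations between -0.16 and 0.25.

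Other genes of the same programme were examined from 19 lists. In no list did a gene pass the adjusted threshold of limma in adapted against control or in a comparison of the lines, in either direction. Over all genes 0.00751% and 0.0150% passed in those comparisons, so few that this says little about the lists. Of 25 further immediate early transcription factors 20 were tested, with a median of shRNA 1 minus shRNA 2 of 0.08, 13 positive and 7 negative, and of adapted minus control of -0.05. The largest differences between lines were those of Nfil3, a repressor tied to the clock (0.77, standard error 0.27), Cebpb, a liver factor of the acute phase and gluconeogenesis (0.60, standard error 0.18), Maff (-0.30) and Fosl2, a FOS relative (0.29). Cebpb had lines that did not overlap, at 7.41 ± 0.38 (SD, n = 3) and 6.81 ± 0.25 (SD, n = 3), with controls between at 7.25 ± 0.13 (SD, n = 4). In Nfil3, Maff and Fosl2 the lines overlapped. Of these 20 tested genes, 1 had lines free of overlap with shRNA 1 higher and 1 with shRNA 1 lower. Over all genes tested the shares were 5.94% and 5.36%, so the counts in the list are near them. Of 31 tested genes of the programme that are not transcription factors, 22 had a positive difference, with a median of 0.11. Cdkn1a, the cell cycle inhibitor p21, was at 1.43 (standard error 0.62) and Gadd45g, a stress-induced growth arrest gene, at 0.95 (standard error 0.86), the latter with livers that overlapped widely. For Cdkn1a 1 shRNA 2 liver, at 7.96, stood just above the lowest shRNA 1 liver, at 7.84. The controls of this gene ran from 6.16 to 8.73 (SD 1.16, n = 4), across most of the span of both lines. Plk2 was at -0.42 (standard error 0.17), without overlap. Among the 31 genes, lines free of overlap were found in 2 with shRNA 1 higher and in 2 with shRNA 1 lower, again near the shares over all genes. Without shRNA 2 replicate 3 the difference was 0.93 for Cdkn1a, 1.62 for Gadd45g and -0.19 for Plk2, and without shRNA 1 replicate 1 that of Cebpb was 0.39.

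The relatives of Dusp1 gave smaller differences. All 9 other dual specificity MAP kinase phosphatase genes listed were tested, and in none were the lines free of overlap. Over all genes tested the lines did not overlap in 5.94% with shRNA 1 higher and in 5.36% with shRNA 1 lower. For 9 genes the absence is therefore little different from the share over all genes. Their differences had a median of -0.03, and the largest were those of Dusp5 (-0.28, standard error 0.16) and Dusp16 (0.22, standard error 0.14), which were -0.18 and 0.09 without shRNA 2 replicate 3. Dusp6, the ERK phosphatase, was at -0.13 (standard error 0.25). MAP kinases and their kinases, 15 tested, had a median of 0.04, with Map3k5, the kinase ASK1 that responds to oxidants, at 0.36 (standard error 0.16; 0.18 without shRNA 2 replicate 3). The 14 tested genes of the factors and kinases that act on serum and cyclic AMP response elements had a median of 0.05, led by Elk3 (0.27, standard error 0.14; 0.17 without shRNA 1 replicate 3). In 4 of these 14 the difference was negative. Whether Dusp1 differed from its relatives was not tested, as it was chosen for its difference.

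**Figure D5:**
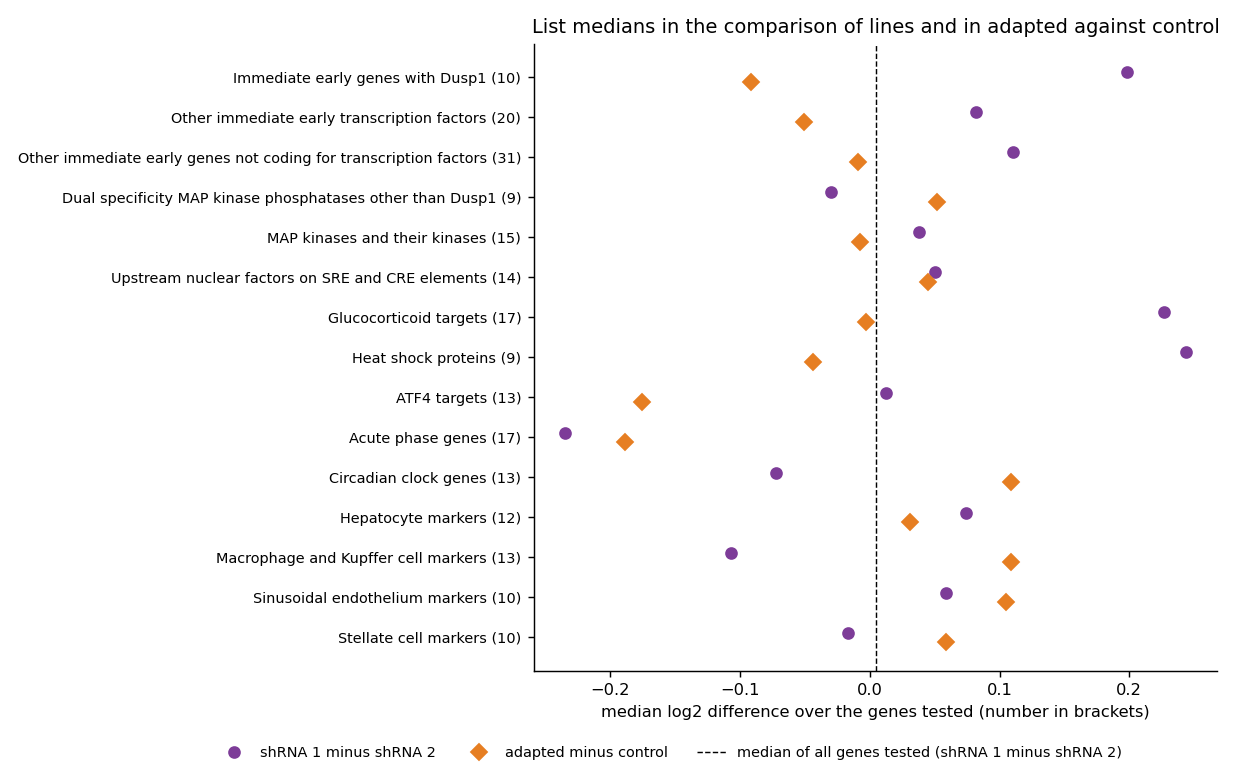
Median log2 difference over the tested genes of each list with at least 9 such genes, for shRNA 1 minus shRNA 2 (circles) and adapted minus control (diamonds), with the median of all genes tested as a dashed line. The immediate early genes with Dusp1 stand at 0.20 and -0.09, the glucocorticoid targets at 0.23 and 0.00, the heat shock proteins at 0.24 and -0.04, and the other phosphatases of the Dusp1 family at -0.03 and 0.05.

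Some other lists stood higher in shRNA 1 than in shRNA 2 livers, as Dusp1 did. Glucocorticoid targets, 17 tested, had a median of 0.23 with 14 positive, and in 5 of the 17 the lines did not overlap, each with shRNA 1 higher, beside the 5.94% of all genes given above. Cdkn1a, Tat, Pck1 and Lcn2 stand in other lists as well. Zbtb16, a glucocorticoid-induced zinc finger gene, was at 1.38 (standard error 0.44), and Tsc22d3, the gene of the glucocorticoid-induced leucine zipper GILZ, at 0.78 (standard error 0.24). Lcn2 was at -1.12 (standard error 0.64). The mean over all measured genes of the list, relative to controls, ran from -0.03 to 0.38 in shRNA 1, from -0.46 to 0.03 in shRNA 2 and from -0.16 to 0.23 in control livers. Heat shock proteins, 9 tested, were higher in shRNA 1 livers in 9 of 9, with a median of 0.24 and list means of 0.09 to 0.22 in shRNA 1 and -0.40 to -0.12 in shRNA 2 livers. Hspa1b and Hsph1, chaperones induced by stress, were at 1.02 (standard error 0.32) and 0.74 (standard error 0.19). Acute phase genes went the other way, with a median of -0.24, 14 of 17 negative and 8 of 17 without overlap and lower in shRNA 1 livers, beside 5.36% of all genes. Apcs, serum amyloid P, was at -0.57 (standard error 0.12). In adapted minus control that list had a median of -0.19 with 2 of 17 positive, while its list means ran from -0.46 to 0.39 among the controls alone. Leaving out single hairpin livers, an alternative chosen after seeing the data, moved several of these values. One liver, shRNA 2 replicate 3, was the lowest of its line in Zbtb16 (6.34), Tsc22d3 (5.66), Hspa1b (5.87) and Hsph1 (6.48). Without it the differences were 0.72 for Zbtb16, 0.50 for Tsc22d3, 0.64 for Hspa1b and 0.56 for Hsph1, and that of Dusp1 was 0.93. The median of the glucocorticoid targets was then 0.16 with 13 of 17 positive, and that of the heat shock proteins 0.28 with 7 of 9 positive. Over all single hairpin livers left out, these medians ran from 0.16 to 0.41 and from 0.21 to 0.29, and that of the acute phase genes from -0.29 to -0.17. Targets of ATF4, the factor of the amino acid response, had 13 tested genes with a median of 0.01 between the lines and -0.18 in adapted minus control. Clock genes, 13 tested, had medians of -0.07 and 0.11 in those comparisons. Between the lines 6 differences were positive and 7 negative, so the median hides opposite moves. Arntl was at 1.13 (standard error 0.52) and Npas2 at 0.84 (standard error 0.30). Dbp was at -1.07 (standard error 0.48) and Per3 at -0.83 (standard error 0.45), and the lines overlapped for each of these genes. Without shRNA 2 replicate 3 the difference was 0.64 for Arntl and -0.465 for Per3. The small medians of the ATF4, clock, MAP kinase and other Dusp lists changed sign with single livers left out. The part of any of these in the Dusp1 difference was not tested.

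Markers of the cell types that a liver sample can hold were read in the same way. Hepatocyte markers, 12 of 12 tested, had a median of 0.07, with list means of 0.06 to 0.19 in shRNA 1, -0.15 to -0.01 in shRNA 2 and -0.09 to 0.09 in control livers. The largest differences were those of Ass1 (1.02, standard error 0.50, and 0.45 without shRNA 2 replicate 2) and Tat (0.56, standard error 0.15). Pck1 followed at 0.41 (standard error 0.13) and Cps1 at 0.12 (standard error 0.08), so a few genes weigh heavily in the list means. Tat and Pck1 stand among the glucocorticoid targets as well. Ass1 read only log2 5.64 ± 0.82 (SD, n = 4) in controls, beside 12.20 for Tat, and its lines overlapped. Macrophage and Kupffer cell markers, 13 of 13 tested, had a median of -0.11 and list means of -0.04 to 0.16 in shRNA 1 and -0.01 to 0.34 in shRNA 2 livers. Of the 13 differences 10 were negative and 3 positive, with Lyz2 at -0.33 (standard error 0.10) and Cd163 at 0.21 (standard error 0.20). Neutrophil markers had list means of 0.00 to 0.04 in shRNA 1 and -0.01 to 0.15 in shRNA 2 livers, with 2 of 11 measured genes above the level filter. Sinusoidal endothelium stood at a median of 0.06 and stellate cells at -0.02, with overlapping lines in both. Cholangiocyte markers had 4 tested genes, a median of -0.16 and list means of -0.19 to -0.13 in shRNA 1 and -0.03 to -0.01 in shRNA 2 livers. Erythroid, T and NK, and B cell lists had 2, 5 and 4 tested genes, with medians of 0.40, 0.05 and -0.06. Tfrc and Slc4a1 were the 2 erythroid genes tested, and the lines overlapped for Tfrc. List means also take in measured genes under the level filter, so they rest on 4 erythroid and 6 cholangiocyte genes. Of all 19 lists, array means did not overlap between the lines in 5: heat shock, MAP kinases, hepatocytes, cholangiocytes and the erythroid list. Single genes did not overlap in 5.94% with shRNA 1 higher and in 5.36% with shRNA 1 lower, but no such share was computed for list means. Some lists share genes, and all were written with earlier results known, so this count is a description only. The part of these lists and cell types in the Dusp1 difference was not tested either.

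Genes outside the list with the pattern most like Dusp1 over the 10 arrays were Dync1h1 (Pearson r = 0.914), Rhbdf2 (0.904), Pam16 (0.902), Rad54l2 (0.900), Fam174b (0.896) and Ublcp1 (0.896), as a description of arrays that share the same 3 groups. Rhbdf2, the gene of the inactive rhomboid iRhom2, had a control mean of log2 5.84 ± 0.07 (SD, n = 4), an shRNA 1 mean of 6.13 ± 0.13 (SD, n = 3) and an shRNA 2 mean of 5.60 ± 0.09 (SD, n = 3). Dync1h1, the cytoplasmic dynein heavy chain, had the same order of groups with a much smaller difference between lines, 0.17 (standard error 0.08). The mean of the 10 members was most like Xcr1 (0.941), Nfyc (0.899), Neu3 (0.885), Shisal2a (0.861), Agbl5 (0.858) and Lmntd2 (0.857), none of which is a classical immediate early gene. No gene was common to the 2 sets.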

How the data were processed

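RNA from 25 mg of each of 10 livers was measured on 1 whole-transcript Affymetrix array per liver. The deposited values are log2 expression per transcript cluster, made with Affymetrix Expression Console per the submitters' processing notes; for version, background correction, normalization and build the entry is: not given in the sources used here. Values of 1.40 to 13.8 fit that scale. No further normalization was applied, and whatever the authors' own did to the levels passes into each difference. Of 41345 clusters, 23521 had 1 gene symbol, 1814 several and 16010 none in the platform annotation; only those with 1 were named. The cluster with the highest mean stood for each gene (22180 genes), and genes under the 40th percentile of mean level were left out (13308 tested).

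Groups came from the sample titles. One fit in limma 3.58.1 (R 4.3.3; lmFit, eBayes) over all 10 arrays gave each difference and standard error, with Benjamini-Hochberg adjustment over all genes tested, two-sided, and a threshold of 0.05. The code was tested on simulated data. After seeing the data, leaving out single hairpin livers was added for the list genes and medians. The number of arrays limits the precision. The members and gene lists were chosen with earlier results of these data known; of each list, up to 4 tested genes with the largest difference between lines could be named, and the 6 genes most correlated with Dusp1 or with the mean of the members, passing over predicted and small noncoding genes, besides Sod2 and the members. In the promoters both strands were searched. Alternatives were quantile normalization, median centring, other level filters, the mean of a gene's clusters, array weights, a block for the replicate number, a trended robust prior, fits of only the groups compared, a threshold of 0.10 and leaving out each array. Figures used matplotlib 3.10.9.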

Additional observations from a re-analysis of the deposited data

Results flagged for a closer look

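Dusp1 had every shRNA 1 liver above the control mean and every shRNA 2 liver below it, with a difference of 0.987 between the lines on the log2 scale; the gene was chosen for this difference, which was not tested on livers other than those it was chosen on. Sgk1 had 1 control far from the other 3: control replicate 4, at log2 5.17, lay away from the nearest control by a share of 0.938 of the whole range of the controls, beyond the limit of 0.829 for 4 samples. This limit marks about 5% of groups by chance, and the controls of 10 genes were examined. Without that liver Sgk1 was higher by 0.35 in adapted livers in place of 0.43.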

How the results depend on the processing

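No member passed in adapted against control under any of the 20 alternatives run. Sgk1 stayed between 0.35 and 0.46 (adjusted p = 0.163 to 0.488) and Btg2 between -0.46 and -0.31 (adjusted p = 0.243 to 0.693), while Dusp1, Egr1 and Jun also kept their sign and the other 5 did not in every setting. Between the lines Dusp1 ran from 0.90 to 1.05 and Zfp36, Btg2, Sgk1 and Junb kept their sign; the median of the members was 0.16 to 0.28. Counts of genes called by limma moved more. Adapted against control, with 1, had 0 with the filter at the 60th percentile and with the 6 hairpin livers as a single group, 6 with the trended robust prior, 2 at a threshold of 0.10 and 1 to 3 with single arrays left out. The comparison of lines, with 2, had 1 with quantile normalization and with the 60th percentile filter, 4 with median centring, 6 with array weights, 7 with the trended prior, 8 at 0.10 and 1 to 4 with arrays left out. For shRNA 1 against control, with 0, the counts were 1 with quantile normalization, 7 with the mean of clusters, 15 with the 60th percentile filter, 19 with array weights, 30 with the trended prior, 20 at 0.10 and 0 to 11 with arrays left out. For shRNA 2 against control, with 1, they were 0 with the 60th percentile filter, which leaves Ctse untested, and 1 to 3 with arrays left out. The cause of the other moves was not tested. Same-numbered livers of different groups did not deviate together throughout (correlations of their deviations between -0.25 and 0.27). The main fit therefore did not pair samples by number, though such correlations cannot exclude a pairing. With the replicate block the comparison of lines had 4 calls and adapted against control 1. Control replicate 4, alone with its number, added nothing to that fit (Sgk1 0.35). Fos and Atf3 were under the 60th percentile filter. Single clusters could not be exchanged, since each member had 1, and no pseudocount was needed for log2 values.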
